A study of Mus musculus with 576 samples.

Results

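The clustered histone genes are the linker and core histone genes of the mouse Hist1 to Hist4 clusters, taken as every row of the count table whose symbol starts with Hist1h, Hist2h, Hist3h or Hist4h. They came to 68 of the 49466 genes in the table. By class they were 6 linker histone H1 genes, 20 H2A, 17 H2B, 12 H3 and 13 H4 genes. The annotation places 54 of them on chromosome 13 (Hist1), 10 on chromosome 3 (Hist2), 3 on chromosome 11 (Hist3) and 1 on chromosome 6 (Hist4). It lists 65 as coding and 3 as pseudogenes (Hist1h2aj, Hist1h2al and Hist3h2bb-ps).

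Single cells came from embryonic day 14.5 livers of C57/Bl6J mice after removal of cells carrying Ter119, CD41, Sca-1, CD11b, Ly-6G, CD16/32, CD45R or CD3e. Live cells enriched for the burst-forming erythroid progenitor (BFU-E) were sorted by CD117, CD71 and CD24, and all were cultured in stem cell factor, IGF-1 and erythropoietin. Dexamethasone, a synthetic glucocorticoid, was added at 100 nM to one arm and left out of the control arm. Polyadenylated RNA of single cells was sequenced after 24, 48 and 72 hours (days 1, 2 and 3). Each day and treatment was 1 plate of 96 wells, so the 6 plates are the samples and a plate has no replicate. The labels do not tie plates to animals or cultures of their own, so a p-value here measures only the spread between plates, which may be technical.

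After filtering, 94, 92 and 94 cells remained on the dexamethasone plates of days 1, 2 and 3, and 94, 96 and 93 cells on the control plates. The summed depth of a plate lay between 88178493 and 116623968 counts. All 12 erythroid progenitor markers, such as Kit, Gata1 and Epor, were measured, and their summed level lay between 3426 and 12020 CPM. Levels are a gene's counts in a plate scaled to a common library size, in CPM with TMM factors, unless stated otherwise. Lymphoid markers summed to 0.167 to 11.7 CPM, macrophage markers to 7.61 to 17.4 CPM, hepatoblast markers to 63.3 and 44.7 CPM on day 2 with dexamethasone and in control and to 1.13 to 7.08 CPM on the other plates, megakaryocyte markers to 114 to 443 CPM, and mast cell and basophil markers to 833 CPM on dexamethasone day 2 and 2.94 to 58.3 CPM on the other plates. Neutrophil and monocyte markers moved more between plates. At least 2 of those 13 markers had a count in 25, 26 and 42 cells of the dexamethasone plates and in 47, 0 and 58 cells of the control plates of days 1, 2 and 3. Their summed level was 318, 523 and 588 CPM with dexamethasone and 1341, 3.82 and 2119 CPM in control. The control plates of days 2 and 3 thus stood at opposite ends in these markers, and the main counts of members and their summed level are given below also without such cells.

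Histones package DNA into nucleosomes, with H2A, H2B, H3 and H4 in the core and H1 on the linker. The clustered genes serve DNA replication: they are transcribed in S phase from NPAT-rich histone locus bodies, and their mRNAs normally end in a stem-loop in place of a poly(A) tail. The stem-loop binding protein SLBP holds that hairpin, the U7 snRNP guides the cut just after it, and the exonuclease ERI1 helps to take the mRNA apart at the end of replication. A library of polyadenylated RNA therefore reads mainly the minority of these transcripts that run past the stem-loop to a poly(A) signal, or that carry a tail for another reason. Such tailed forms are known from differentiating cells. Erythroid progenitors divide rapidly before they condense and expel the nucleus.

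The stem-loop sites of members on which the results below turn are shown first. The mRNAs of these genes normally end just after this hairpin, without a poly(A) tail. Each line gives 26 bases of the sense strand in GRCm38, with the 16 bases of the stem-loop in capitals and 5 flanking bases on each side in lower case.
Hist1h4i: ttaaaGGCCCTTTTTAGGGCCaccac
Hist1h4d: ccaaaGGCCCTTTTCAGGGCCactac
Hist1h4j: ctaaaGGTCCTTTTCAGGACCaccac
Hist2h4: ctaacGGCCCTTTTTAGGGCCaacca
Hist1h1c: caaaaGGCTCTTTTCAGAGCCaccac
Hist1h1e: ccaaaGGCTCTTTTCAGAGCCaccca
Hist1h3e: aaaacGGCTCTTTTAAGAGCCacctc
Hist1h3d: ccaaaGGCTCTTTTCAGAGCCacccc
Hist1h2be: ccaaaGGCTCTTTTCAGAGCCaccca
Hist1h2ab: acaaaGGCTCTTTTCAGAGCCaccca

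Each of these genes has a single annotated exon, except Hist1h2be, whose model has up to 2. The Hist1h4i site lies at chr13:22040961-22040986 on the minus strand and the Hist1h1c site at chr13:23739507-23739532 on the plus strand. Hist1h1e (chr13:23621777-23621802) and Hist1h3e (chr13:23561898-23561923) are on the minus strand, and Hist1h4d (chr13:23581945-23581970) and Hist1h3d (chr13:23576239-23576264) on the plus strand. The sites of Hist1h4j (chr13:21735432-21735457, plus), Hist2h4 (chr3:96262934-96262959, minus), Hist1h2be (chr13:23585526-23585551, minus) and Hist1h2ab (chr13:23751567-23751592, plus) complete the set.

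Of the 68 members, 44 had the histone stem-loop in an annotated transcript. Among 58797 coding transcripts of all genes, the members' own included, 87 had it (0.148%). The first count is of genes and the second of transcripts. There were 8 distinct 16-base sequences among the 44 members, and 24 members shared the one printed for Hist1h1c. In 22 members the annotated transcript ran at least 100 bases past the stem-loop, here called extended. Those tails were 330 bases long for Hist1h4i, 840 for Hist1h1c, 1153 for Hist1h1e and 1257 for Hist2h4. In 22 others the model stopped sooner, here called short, as in Hist1h2ab with 11 bases. The remaining 24 held no match within their annotated bases, and their median annotated exonic length was only 402 bases. The signal AATAAA stood in the last 50 annotated bases of 11 of the 22 extended members, 1 of the 22 short ones and 3 of the 24 without a match. Among all coding transcripts 40.5% held it there.

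Most counts fell on members with extended models. The 22 extended members held 73.7% of the summed mean level of all members, the 22 short ones 7.27% and the 24 without a match 19.05%. A mean of at least 1 CPM over the 6 plates was reached by 16 of 22 extended members, 5 of 22 short ones and 7 of 24 without a match. Longer models catch more reads, and per kilobase of annotated exon the median member stood at 2.54 CPM per kb when extended, 1.10 when short and 1.33 without a match. The 15 members with AATAAA near the end held 39.2% of the summed mean level and the 53 without it 60.8%. A mean of at least 1 CPM was reached by 8 of the 15 and 20 of the 53. The median was 1.10 CPM per kb with it and 1.27 without, and Hist1h4i, the most abundant member, did not have it. These values describe annotated models, and where the reads of a gene lay was not analysed here.

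**Figure D1:**
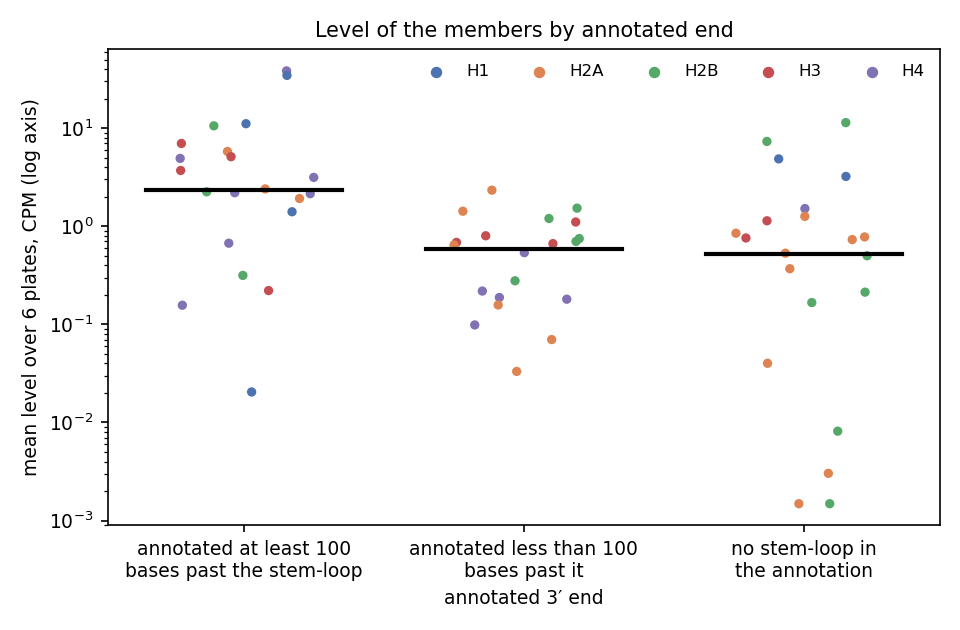
Mean CPM over the 6 plates of each clustered histone gene (y axis, log scale), by the annotated end of its transcripts (x axis: at least 100 bases past the stem-loop, fewer, or no match). Each point is a gene, and the 6 genes without a count cannot be drawn on the log axis. Most genes above 1 CPM stand in the extended column, where the highest is Hist1h4i at a mean of 38.4 CPM.

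Many members are near copies of one another, which limits what a read can be assigned to. In 34 members fewer than 50% of the 50-base words of the annotated exons were found in no other gene. Those 34 held 13.4% of the summed mean level and 9 of the 28 members with a mean of at least 1 CPM. All 6 members without a single count (Hist2h2bb, Hist2h2aa2, Hist2h3b, Hist2h2aa1, Hist2h3c1 and Hist1h2br) were among them. Of these 6, Hist2h2aa2 and Hist2h3c1 had no unique word at all. How the authors' counting treated reads with several matches is not given in the sources used here, so the levels of such members are uncertain. The annotated ends differed in this as well: the median share of words found in no other gene was 75.3% in extended members. It was 40.1% in short ones and 24.4% in those without a match, and its part in their levels was not tested.

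Counts of the 68 members came to 13692, 28446 and 17829 on the dexamethasone plates of days 1, 2 and 3, and to 12160, 29265 and 20028 on the control plates. A count was found for 62 members, and 56 passed the filter on low counts and were tested. The 6 members with counts too few to test were Hist1h2ap, Hist1h1t, Hist1h2ba, Hist1h2al, Hist1h2bq and Hist1h2aa. Of these, Hist1h1t, Hist1h2ba and Hist1h2aa are known as testis histones. The floor that 3 counts set lay between 0.0249 and 0.0335 CPM, depending on the plate. In the following, a triple of values gives days 1, 2 and 3 in that order.

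The linker histones and histone H4 were the best represented classes, each led by one gene. Hist1h4i, one of several genes that encode the same H4 protein, had 26.3, 39.8 and 26.7 CPM with dexamethasone and 24.2, 65.7 and 47.7 CPM in control. Its counts came from 87.2, 89.1 and 78.7% of cells with dexamethasone and 80.9, 94.8 and 83.9% of cells in control. Dexamethasone was below control on days 2 and 3, while on day 1 the plates stood close together, and day 2 was the highest day in both arms. Hist1h1c, a linker histone gene, had 16.99, 54.4 and 26.3 CPM with dexamethasone and 19.8, 43.6 and 46.2 CPM in control. It was found in 67.02, 94.6 and 60.6% of cells with dexamethasone and 65.96, 69.8 and 48.4% of cells in control. On control day 3 a single cell held 48.4% of the Hist1h1c counts, so the high level there does not reflect its spread over cells. Hist1h4i and Hist1h1c together made up 38.1, 38.2 and 29.8% of all members' counts on the dexamethasone plates and 32.4, 40.3 and 52.6% on the control plates.

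Among the other linker histones, Hist1h1e had 6.96, 17.7 and 10.98 CPM with dexamethasone and 9.16, 16.5 and 5.41 CPM in control. Hist1h1b had 3.53, 5.999 and 8.79 CPM with dexamethasone and 2.16, 6.39 and 2.32 CPM in control. Hist1h1a had 2.97, 3.46 and 4.72 CPM with dexamethasone and 2.93, 4.41 and 0.856 CPM in control. These 3 genes were lower on day 3 than on day 2 in control but not all so with dexamethasone, where Hist1h1b and Hist1h1a were highest on day 3. Hist1h1d had 0.449, 1.24 and 2.21 CPM with dexamethasone and 1.22, 2.61 and 0.704 CPM in control, with the same order of days. The 5 tested H1 genes thus split on day 3: Hist1h1c was lower with dexamethasone and the other 4 were at least 2-fold higher. Summed over the class, H1 came to 30.9, 82.9 and 53.02 CPM with dexamethasone and to 35.3, 73.5 and 55.5 CPM in control, so the leading gene hid that split.

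In class H4 the genes behind Hist1h4i were lower by several-fold. Hist1h4d had 1.79, 6.87 and 5.18 CPM with dexamethasone and 5.37, 9.01 and 1.31 CPM in control. It was spread over many cells, with a count in 54.3, 70.7 and 58.5% of cells with dexamethasone and 74.5, 71.9 and 21.5% of cells in control. Hist4h4, the single gene of the cluster on chromosome 6, had 2.38, 5.096 and 2.76 CPM with dexamethasone and 3.84, 3.87 and 0.972 CPM in control. Both were at their lowest on control day 3. Hist2h4 had 0.365, 5.57 and 2.05 CPM with dexamethasone and 0.379, 3.22 and 1.302 CPM in control. Day 1 was the lowest day in both arms for Hist2h4, and day 2 the highest. Hist1h4j had 2.16, 5.24 and 2.53 CPM with dexamethasone and 1.54, 1.26 and 0.464 CPM in control. Every dexamethasone plate of Hist1h4j stood above every control plate. Hist1h4k had 1.404, 1.16 and 2.302 CPM with dexamethasone and 0.882, 2.13 and 1.21 CPM in control, with the arms overlapping. The class summed to 35.2, 67.8 and 44.4 CPM with dexamethasone and to 37.2, 87.5 and 54.1 CPM in control.

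Class H2B was led by genes with long or spliced models. Hist2h2be (chr3:96221119-96223738, plus strand), none of whose 50-base words occurs in another gene, had 7.94, 9.37 and 12.04 CPM with dexamethasone and 7.99, 19.4 and 11.7 CPM in control. Hist1h2bc (chr13:23684199-23692908, plus strand, 2 exons) had 9.61, 7.11 and 5.17 CPM with dexamethasone and 7.399, 6.09 and 8.58 CPM in control. Hist1h2bc was lower on each later day in the dexamethasone arm, and its counts came from 68.1, 48.9 and 30.9% of cells with dexamethasone and 53.2, 37.5 and 27.96% of cells in control. Hist1h2be had 0.963, 9.11 and 14.1 CPM with dexamethasone and 4.94, 12.3 and 22.01 CPM in control. It was higher on each later day in both arms. The annotated span of Hist1h2be (chr13:23583670-23621124, minus strand) overlaps that of Hist1h1e on the same strand, so reads in the shared stretch cannot be told apart. Among the lower H2B genes, Hist1h2bg had 1.22, 3.64 and 2.03 CPM with dexamethasone and 2.901, 2.83 and 0.865 CPM in control. Hist1h2bk had 0.897, 3.16 and 1.73 CPM with dexamethasone and 1.18, 1.21 and 1.01 CPM in control. Hist1h2bj had 1.54, 2.16 and 0.887 CPM with dexamethasone and 0.859, 1.28 and 0.472 CPM in control. For Hist1h2bk and Hist1h2bj the highest of the 6 plates was day 2 with dexamethasone. The class summed to 23.9, 38.7 and 38.02 CPM with dexamethasone and to 27.3, 48.5 and 46.8 CPM in control.

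H2A genes were low and spread over several members. Hist3h2a had 3.06, 3.02 and 4.82 CPM with dexamethasone and 1.596, 15.1 and 7.11 CPM in control, and its highest plate was control day 2. Hist1h2ae had 1.94, 3.51 and 1.83 CPM with dexamethasone and 3.69, 1.77 and 1.68 CPM in control. Hist1h2ab had 0.955, 2.51 and 3.04 CPM with dexamethasone and 2.04, 4.32 and 1.15 CPM in control. The arms overlapped for each of these 3 genes. Hist1h2ac had 0.739, 3.18 and 1.35 CPM with dexamethasone and 1.93, 3.21 and 1.12 CPM in control. Hist1h2ag had 1.59, 2.34 and 1.46 CPM with dexamethasone and 1.13, 1.001 and 1.03 CPM in control, every dexamethasone plate again above every control plate. Hist1h2ak had 0.465, 1.302 and 1.27 CPM with dexamethasone and 1.03, 3.43 and 0.0802 CPM in control. The lowest Hist1h2ak plate was control day 3, where it had 9 counts in 7 cells. The class summed to 11.1, 21.1 and 18.1 CPM with dexamethasone and to 15.9, 34.4 and 15.5 CPM in control.

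Class H3 had the widest range between plates as a ratio, although classes H1 and H4 spanned more CPM. Its sum was 12.6, 36.4 and 24.2 CPM with dexamethasone and 20.01, 27.4 and 6.61 CPM in control. Hist1h3e had 3.64, 14.96 and 8.36 CPM with dexamethasone and 6.14, 7.12 and 1.71 CPM in control. Hist1h3f had 2.51, 7.32 and 6.56 CPM with dexamethasone and 4.44, 6.99 and 2.92 CPM in control. Hist1h3d had 2.55, 4.51 and 4.81 CPM with dexamethasone and 4.98, 5.25 and 0.143 CPM in control. Control day 3 was the lowest of the 6 plates for Hist1h3e and Hist1h3d, and the second lowest for Hist1h3f. On control day 3 the 16 counts of Hist1h3d all came from 1 of 93 cells. Hist1h3i had 0.8804, 2.29 and 1.09 CPM with dexamethasone and 0.558, 1.9004 and 0.107 CPM in control, again lowest on control day 3. Hist1h3b had 0.548, 1.41 and 0.688 CPM with dexamethasone and 1.09, 1.91 and 0.9895 CPM in control, and its control day 3 level was inside the range of the other plates. The 28 tested members under a mean of 1 CPM were 9 H2A, 7 H2B, 5 H3 and 7 H4 genes, with means of 0.0401 (Hist2h2ab) to 0.85 CPM (Hist1h2aj) and no plate above 1.90 CPM.

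**Figure D2:**
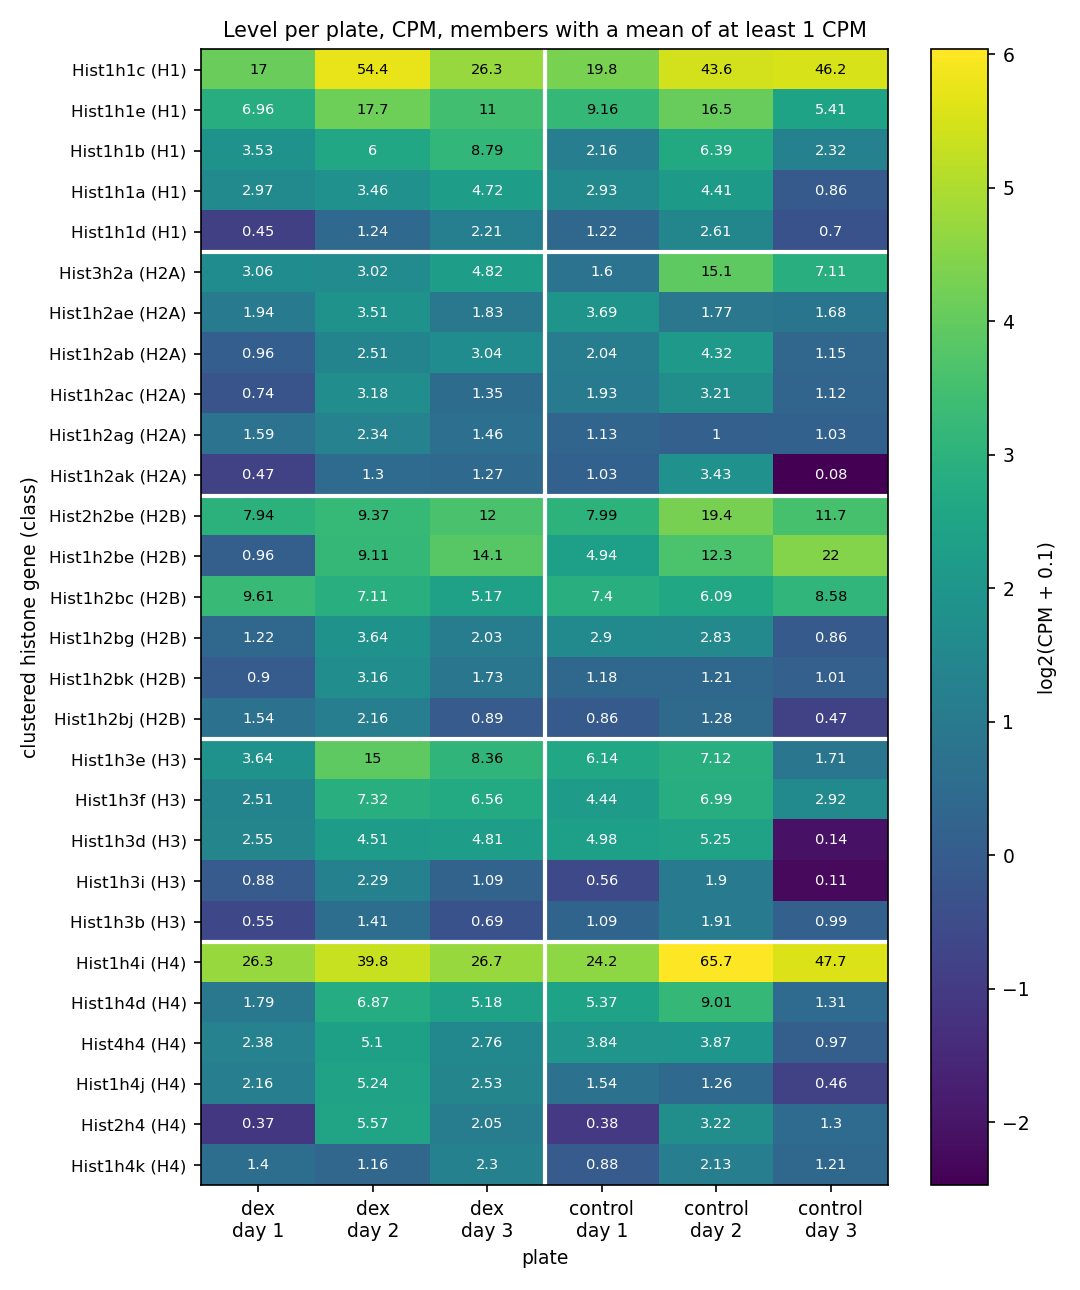
CPM of the 28 clustered histone genes with a mean of at least 1 CPM, in every plate (dexamethasone left of control, days 1, 2 and 3 in order). Hist1h4i and Hist1h1c stand well above the rest in every plate, with 16.99 to 65.7 CPM. Some genes of every class, such as Hist1h1a, Hist1h2ak, Hist1h2bg, Hist1h3d and Hist1h4d, are at their lowest on control day 3, while others such as Hist3h2a are not.

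**Figure D3:**
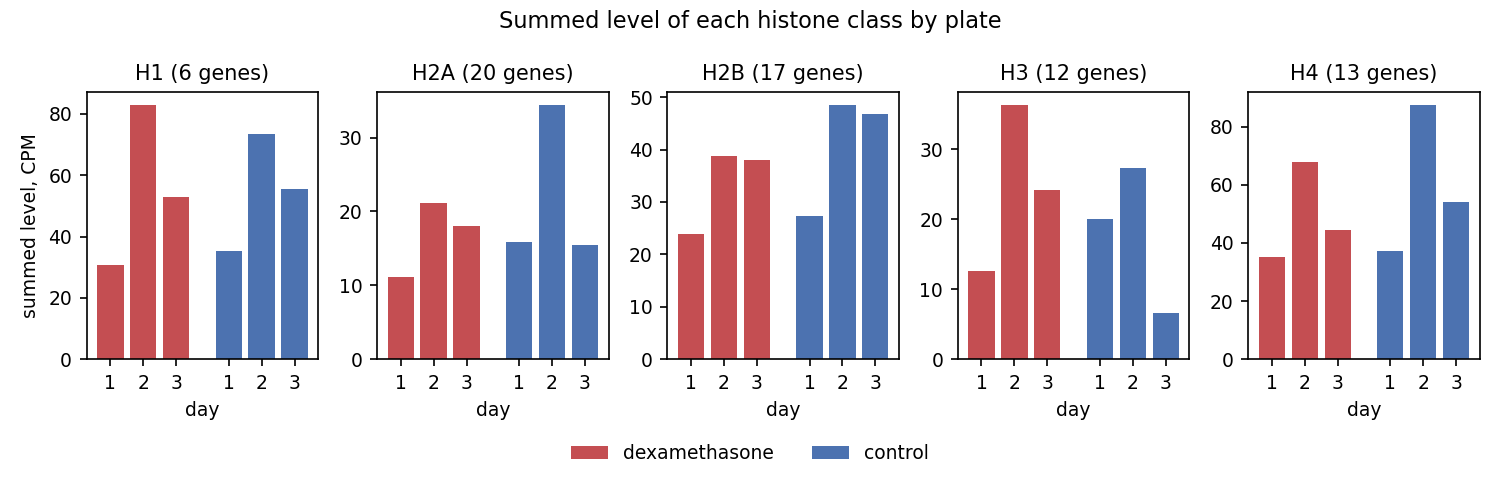
Summed CPM of each histone class by day (x axis) with and without dexamethasone, 1 plate per bar and a separate y axis per class. In every class day 2 stands above day 1 in both arms, and class H3 drops to 6.61 CPM on control day 3, against 24.2 CPM with dexamethasone.

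The first comparison was between days, fitted over both arms. More members were higher on day 2 than on day 1 than the other way, although none passed the test in edgeR. In edgeR's quasi-likelihood fit over the 6 plates, 0 of 56 tested members and 0% of all 20040 tested genes had an adjusted p under 0.05 for day 2 against day 1. At an unadjusted p under 0.05, 11 members were higher and 0 lower, against 8.05% of all genes higher and 7.68% lower. The fitted change was positive for 52 of 56 members, with a median log2 value of 1.14, against 0.04 over all tested genes. Among the 11 were Hist2h4 (log2 change 3.59, SE 0.54, edgeR adjusted p 0.208), Hist1h2be (2.03, SE 0.53), Hist1h1c (1.43, SE 0.34), Hist1h1e (1.09, SE 0.41) and Hist1h4i (0.99, SE 0.31). The other 6 were Hist1h3h, Hist1h4f, Hist1h2bp, Hist1h4m, Hist1h4n and Hist3h2ba, all with a mean under 1 CPM. DESeq2, run as an alternative, called 5 members higher at an adjusted p under 0.05 (Hist2h4, Hist1h1c, Hist1h2be, Hist1h2bp and Hist1h4i), beside 4.12% of all genes.

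The same direction was seen within each arm, where there is 1 plate a day and hence no test. On day 2 over day 1 with dexamethasone, 37 of 56 tested members were at least 2-fold higher and 0 at least 2-fold lower, while 18.5% of all genes were higher and 13.9% lower by that rule. In control 24 members were higher and 3 lower, against 18.8% and 17.6% of all genes. The median log2 ratio of the members was 1.40 with dexamethasone and 0.82 in control. All 5 H1 genes and all 10 H3 genes had a positive ratio in the dexamethasone arm. Summed over the members, day 2 stood at 247.0 CPM and day 1 at 113.7 CPM with dexamethasone, and at 271.3 and 135.7 CPM in control. Without the cells with at least 2 neutrophil and monocyte markers, 36 members were at least 2-fold higher on day 2 with dexamethasone and 27 in control, beside 19.1% and 23.1% of all genes. Markers of other cells moved with day 2 as well: hepatoblast markers were highest on both day 2 plates and mast cell and basophil markers on dexamethasone day 2, with the values given above. Of 24 red cell genes, 18 were higher on day 2 and 0 lower at an unadjusted p under 0.05 in edgeR, which called 0 of them. The part of these in the members' levels was not tested. Each of these ratios rests on a pair of plates, with no replicate check.

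From day 2 to day 3 more members were lower than higher in both arms, and the median fall was larger in control. In control, 37 of 56 members were at least 2-fold lower on day 3 than on day 2 and 3 were higher, against 19% of all genes lower and 15.2% higher, and the median log2 ratio was -1.43. By class the lower ones were 8 of 10 H3 genes (median -2.38), 8 of 13 H4, 10 of 15 H2A, 7 of 13 H2B and 4 of 5 H1 genes. With dexamethasone, 18 members were lower and 1 higher, against 14.4% and 14.3% of all genes, and the median was -0.68. The sum over all members, led by Hist1h4i and Hist1h1c, was 177.7 CPM on day 3 with dexamethasone and 178.5 CPM in control. Without Hist1h4i, Hist1h1c and Hist2h2be it was 112.7 CPM on day 3 and 143.3 CPM on day 2 with dexamethasone, against 72.96 CPM on day 3 and 142.7 CPM on day 2 in control. Leaving out the cells with at least 2 neutrophil and monocyte markers left 37 members at least 2-fold lower on control day 3 than on control day 2, with a median of -1.75, beside 27.8% of all genes. Any further part of the cell makeup of the plates in this was not tested.

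For day 3 against day 1, fitted over both arms, edgeR called 0 of 56 members and 0% of all genes. At an unadjusted p under 0.05 it had 5 members higher and 0 lower, against 9.34% and 8.82% of all genes. The 5 were Hist1h2be (log2 change 2.77, SE 0.52, adjusted p 0.156), Hist2h4 (2.21, SE 0.64), Hist1h1c (0.96, SE 0.34), Hist3h2ba and Hist3h2bb-ps. DESeq2 called 2 members higher, Hist2h4 and Hist1h2be, beside 5.28% of all genes. Over the 56 members the median log2 change was 0.05, with 29 positive, against 0.01 over all tested genes. That value averages arms that went opposite ways: the median log2 ratio of day 3 over day 1 was 0.69 with dexamethasone, with 44 of 56 positive, and -0.68 in control, with 19 of 56 positive.

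The second comparison was dexamethasone against control. No member passed the test, and the fitted changes went both ways. With day as a term, edgeR called 0 of 56 members and 0% of all genes at an adjusted p under 0.05. At an unadjusted p under 0.05, 1 member was higher and 3 were lower, against 7.08% of all genes higher and 8% lower, so members passed no more often than genes at large. DESeq2 called 0 members, beside 2.5% of all genes higher and 3.78% lower. The median log2 change of the members was 0.28, with 35 of 56 positive, against 0.03 over all genes. The sign rested on day 3: without it the median was -0.13, with 25 of 55 positive, while without day 1 it was 0.56, with 41 of 56 positive. The 1 higher member was Hist1h4j (log2 change 1.62, SE 0.52, edgeR adjusted p 0.318). The 3 lower ones all had few counts. Hist3h2ba had 1, 7 and 11 counts with dexamethasone and 10, 71 and 106 in control. Hist1h4f had 1, 17 and 8 counts with dexamethasone and 5, 72 and 19 in control. The pseudogene Hist3h2bb-ps had 0, 6 and 4 counts with dexamethasone and 0, 25 and 76 in control. The smallest adjusted p of any member was 0.289, for Hist3h2ba (log2 change -3.25, SE 0.64).

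For most members the 3 dexamethasone plates overlapped the 3 control plates. Of the 56 tested, 2 (Hist1h4j and Hist1h2ag) had every dexamethasone plate above every control plate, against 7.13% of all genes. Another 2 (Hist3h2ba and the pseudogene Hist1h2aj) had every dexamethasone plate below, against 5.44% of all genes, and the other 52 overlapped. Hist1h2aj had 0.598, 0.365 and 0.767 CPM with dexamethasone and 1.06, 0.88995 and 1.42 CPM in control. Summed over all 68 members, the log2 ratio of dexamethasone over control was -0.25, -0.14 and -0.01 on days 1, 2 and 3, a mean of -0.13. Flipping signs over the 3 days in an exact two-sided permutation test gave p = 0.25, the smallest value this design allows, reached because the 3 signs are alike. They stayed alike with all wells (day 3 ratio -0.007, mean -0.13) and with RLE size factors, another scaling (-0.028, mean -0.16). Each of these had an exact permutation p of 0.25. Under the following settings the signs were not alike. The day 3 ratio was 0.32 without the cells with at least 2 neutrophil and monocyte markers (mean of the 3 days -0.024, exact permutation p = 1). It was 0.23 without the cell with most counts of each gene and plate (mean -0.039), 0.14 as the median over cells (mean -0.040), 0.051 on plain library totals (mean -0.064) and 0.63 without the 3 most abundant members (mean 0.070), each with an exact permutation p of 0.75.

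Taken day by day, the ratio of the arms turned round. On day 1, 2 of 56 members were at least 2-fold higher with dexamethasone and 16 lower, against 13.7% and 11.7% of all genes, with a median log2 ratio of -0.47. On day 2, 9 were higher and 8 lower, against 20% and 15% of all genes, with a median of 0.14. On day 3, 28 were higher and 2 lower, against 21.6% and 13.7% of all genes, with a median of 0.97 beside 0.03 over all genes. The higher ones on day 3 included 7 of 10 H3 genes (median 2.13), 4 of 5 H1, 7 of 13 H4, 5 of 15 H2A and 5 of 13 H2B genes. The 2 lower ones were H2B genes. This day 3 ratio and the control ratio of day 3 over day 2 share the control plate of day 3, so they are not separate pieces of evidence. Under each of the other scalings and cell filters tried, 27 to 31 members were at least 2-fold higher on day 3. Without the cells with at least 2 neutrophil and monocyte markers these were 27 members, beside 26.01% of all genes, and on day 1 the lower ones were 15, beside 10.03%.

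A test of the difference itself was added after the values were seen: an edgeR term for dexamethasone on day 3, with days 1 and 2 taken as replicates. It called 0 members. At an unadjusted p under 0.05 it had 2 members higher and 0 lower, against 2.1% and 1.3% of all genes. They were Hist1h3d (log2 difference 5.6, SE 1.27, unadjusted p 0.00717) and Hist1h1a (2.66, SE 0.99, unadjusted p 0.0435), neither past the adjusted threshold. The term was positive for 43 of 56 members, with a median of 1.06 beside 0.06 over all genes.

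**Figure D4:**
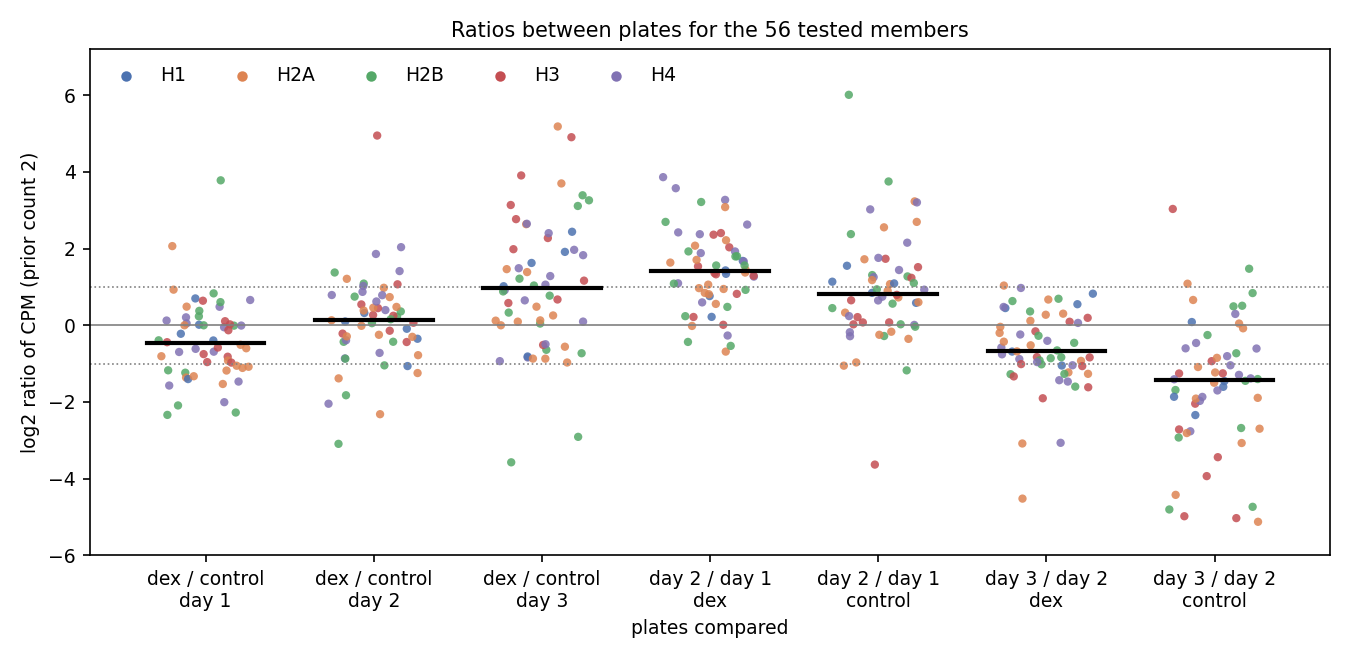
Log2 ratios between pairs of plates (x axis) for each tested clustered histone gene, coloured by class, with a black bar at the median of each column and dotted lines at 2-fold. The median is at 0.97 for dexamethasone over control on day 3 and at -1.43 for control day 3 over control day 2, and these columns share a plate.

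Single cells differed in how many members they held. Each cell was thinned to 500000 counts, which left 92, 89 and 89 cells with dexamethasone and 87, 83 and 91 cells in control. The median number of members with a count was 9.5, 13 and 11 per cell with dexamethasone and 11, 14 and 5 in control. Before thinning the medians were 12, 15.5 and 12.5 with dexamethasone and 13, 16 and 6 in control. Dexamethasone minus control was thus -1.5, -1 and 6 members on days 1, 2 and 3, a mean difference of 1.17 (exact permutation test by flipping signs over the 3 days, two-sided, p = 1, where 0.25 is the smallest possible). On day 3, 4 cells (4.49%) had 2 or fewer members with dexamethasone, against 18 cells (19.8%) in control. Cells with 20 or more members numbered 0, 21 and 12 with dexamethasone and 4, 10 and 0 in control. The highest cell of control day 3 had 13 members, while the highest of every other plate had between 19 and 30.

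Control day 3 was also the plate with the fewest genes of any kind per cell. At 500000 counts the median cell had 8174, 8121 and 7915 genes with dexamethasone and 7734, 6970 and 5917 genes in control. The other plates did not follow the same order in genes and members: dexamethasone day 1 had the most genes but the second fewest members, and control day 2 had the second fewest genes but the most members. For 37 of the 56 tested members the share of cells with a count at that depth was lowest on control day 3, and the same held for 51.6% of all 20040 tested genes. It also held for 23 of the 28 members with a mean of at least 1 CPM, for which no share over genes of like level was taken. The lower detection on that plate was shared with many other genes, and a part particular to the histones was not tested. In control day 3 the median was 5 members both in the 56 cells with at least 2 neutrophil and monocyte markers and in the 35 cells without. On dexamethasone day 3 it was 8.5 in the 38 cells with those markers and 12 in the 51 without.

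Shares of cells differed member by member. Hist1h3d had a count in 39 of 94 cells on dexamethasone day 3 (41.5%, exact binomial 95% interval 31.4 to 52.1%), against 1 of 93 on control day 3 (1.08%, 0.0272 to 5.85%). Hist1h3f had one in 50 cells on dexamethasone day 3 (53.2%, 42.6 to 63.6%), against 13 on control day 3 (13.98%, 7.66 to 22.7%). Hist1h4d had one in 55 cells on dexamethasone day 3 (58.5%, 47.9 to 68.6%), against 20 on control day 3 (21.5%, 13.7 to 31.2%). Hist1h4i, in contrast, had one in 74 cells on dexamethasone day 3 (78.7%, 69.1 to 86.5%), against 78 on control day 3 (83.9%, 74.8 to 90.7%). As levels, Hist1h3d stood at 4.81 CPM on dexamethasone day 3 (exact Poisson 95% interval 4.39 to 5.26 CPM), against 0.143 CPM on control day 3 (0.0815 to 0.232 CPM). These intervals cover counting error only, and reads of 1 cell are not independent molecules. The cells of a plate are no replicates of the treatment, the shares are not thinned, and these 4 members were picked after their values were seen, so they describe the 2 plates only.

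The summed level of the members per cell did not show the same pattern. Its median over cells was 108, 208 and 116 CPM with dexamethasone and 120, 210 and 116 CPM in control, on library totals without further scaling. On control day 3 the 10 cells with the highest sums held 40.99% of the plate's sum, against 26.6 to 30.4% on the other plates. The members of that plate were thus fewer per cell, with a larger part of their counts in a few cells and in Hist1h4i and Hist1h1c.

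**Figure D5:**
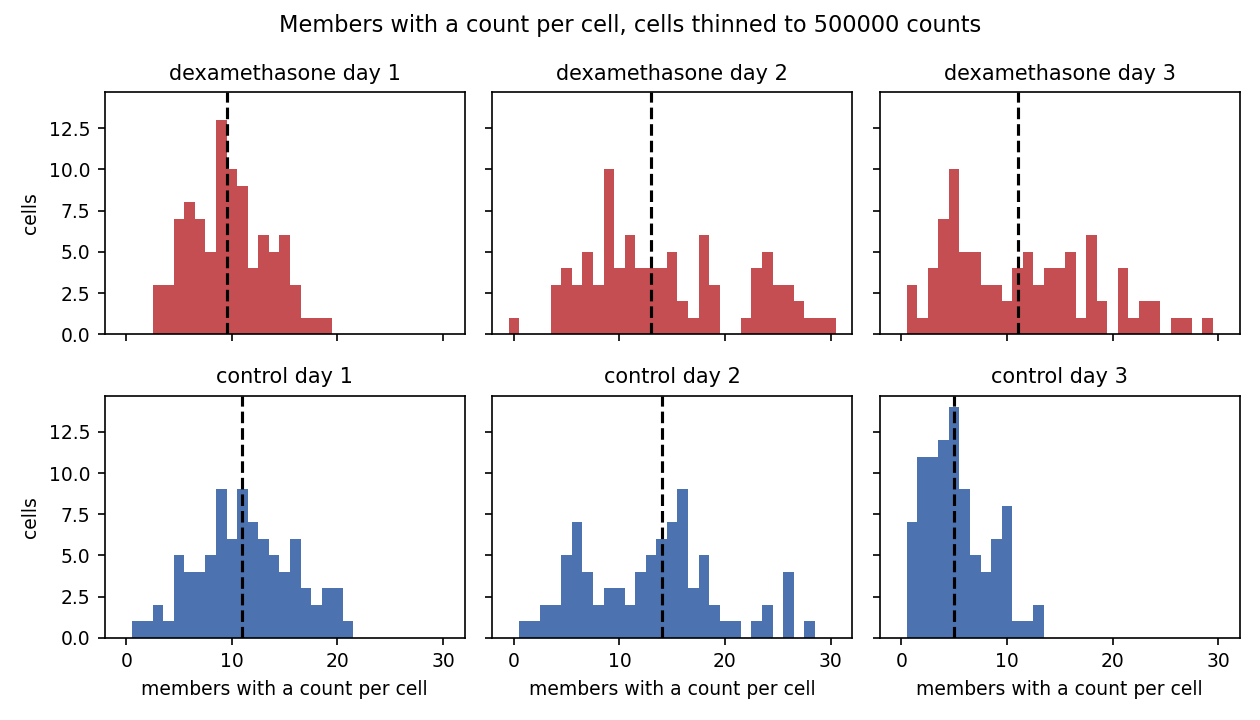
Number of clustered histone genes with a count per cell (x axis) after thinning to 500000 counts, with the number of cells on the y axis, dexamethasone above control and days 1 to 3 from left to right. The dashed line is the median of a plate, at 5 genes on control day 3 and between 9.5 and 14 genes elsewhere.

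Across the cells of a plate, the number of members with a count was compared with scores of other gene lists as a description, since the points share a library and its depth. Spearman's rho with the mean log level of 30 S phase genes was 0.03, 0.46 and 0.50 over the 92, 89 and 89 cells of the dexamethasone plates and 0.12, 0.30 and 0.34 over the 87, 83 and 91 cells of the control plates. With 27 G2 and M phase genes it was 0.15, 0.59 and 0.52 with dexamethasone and 0.16, 0.43 and 0.48 in control. With 24 red cell genes it was 0.12, 0.01 and -0.29 with dexamethasone and 0.29, -0.05 and -0.38 in control. For the number of members, rho with both cell cycle lists was higher on days 2 and 3 than on day 1 in both arms. For the summed level of the members this did not hold with the S phase genes in control: rho with the S phase genes was -0.069, 0.31 and 0.44 with dexamethasone and 0.14, 0.18 and -0.042 in control. With the G2 and M phase genes it was 0.064, 0.44 and 0.40 with dexamethasone and -0.056, 0.39 and 0.11 in control. Cells also differed less in the S phase score on day 1. Its 10th percentile over cells was 7.06, 4.41 and 5.09 with dexamethasone and 7.07, 5.48 and 2.79 in control. Its medians were 7.82, 6.99 and 7.01 with dexamethasone and 7.89, 7.73 and 7.28 in control. The part of this spread in rho was not tested.

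The genes that make and shape histone mRNA were read from lists of related genes. SLBP's gene, Slbp, had 348, 256 and 295 CPM with dexamethasone and 401, 448 and 518 CPM in control, and its fitted log2 change for dexamethasone was -0.61 (SE 0.16, edgeR adjusted p 0.313). Npat, whose protein drives histone gene transcription, had 77.99, 85.4 and 82.3 CPM with dexamethasone and 76.1, 94.2 and 72.6 CPM in control, with a change of 0.02 (SE 0.15). Eri1, the exonuclease that acts on the stem-loop, had 174, 129.5 and 148 CPM with dexamethasone and 172, 222 and 237 CPM in control. Slbp was lower with dexamethasone on each day and Eri1 on days 2 and 3, while Npat overlapped between the arms. Casp8ap2, whose protein FLASH acts in the cutting of histone mRNA, had 105, 118 and 77.7 CPM with dexamethasone and 104, 112 and 114 CPM in control. Of the 23 genes of histone mRNA 3′ end processing and decay, edgeR called 0. At an unadjusted p under 0.05 it had 2 higher with dexamethasone (Ncbp2 and Snrpe) and 2 lower (Slbp and Zcchc6), with a median log2 change of -0.0018. The shares over all genes were 7.08% higher and 8% lower. DESeq2 called 2 of the 23 lower, beside 3.78% of all genes.

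Genes of the axis that controls histone transcription gave different calls for dexamethasone with the test used. Of 12 genes of the cyclin E, CDK2 and NPAT axis, edgeR called 0, with 5 lower and 0 higher at an unadjusted p under 0.05 and a median log2 change of -0.61. DESeq2 called 5 of the 12 lower. Ccne1, which encodes cyclin E, had 246, 178 and 199 CPM with dexamethasone and 466, 459 and 393 CPM in control, and each dexamethasone plate was below each control plate. E2f2, a transcription factor of the cell cycle, had 18.1, 42.4 and 57.1 CPM with dexamethasone and 27.9, 153 and 235 CPM in control. Cdkn1a, which encodes an inhibitor of cyclin-dependent kinases, had 54.4, 438 and 346 CPM with dexamethasone and 90.1, 501 and 606 CPM in control, far lower on day 1 than later in both arms. Of 30 S phase genes, 14 were lower and 0 higher at that p, with a median of -0.49, and of 27 G2 and M phase genes 22 were lower and 0 higher, with a median of -0.74. The 24 red cell genes measured had 20 lower and 0 higher and a median of -1.21. Their backgrounds are the 7.08% and 8% of all genes given above. DESeq2 called 12 S phase, 17 G2 and M phase and 18 red cell genes lower. The members themselves had a median of 0.28 in the same fit, which was -0.13 without day 3, and the difference between lists was not tested.

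Histone genes outside the clusters make replication-independent variants with ordinary poly(A) tails. H3f3b, an H3 variant gene, had 1210.3, 957 and 920.4 CPM with dexamethasone and 1296, 1141 and 999 CPM in control. H2afz had 522, 304 and 436 CPM with dexamethasone and 329, 333 and 525 CPM in control. These levels were between 304 and 1296 CPM as counts per gene, which were not divided by length and so are not set against the clustered genes. H2afx, whose transcript is known in both a stem-loop and a tailed form, had 76.8, 58.4 and 66.02 CPM with dexamethasone and 110.1, 204 and 127 CPM in control, lower with dexamethasone on each day (log2 change -1.09, SE 0.28, edgeR adjusted p 0.313). H1f0, the linker histone of cells that leave the cycle, had 23.6, 12.5 and 29.2 CPM with dexamethasone and 30.3, 123 and 119.9 CPM in control, with a log2 change of -1.91 (SE 0.60, adjusted p 0.317). Of 11 tested variant genes, edgeR called 0, with 2 lower and 0 higher at an unadjusted p under 0.05, and DESeq2 called 2 lower. Of 26 histone chaperones and assembly factors, edgeR called 0, with 3 lower (Mcm2, Anp32e and Hjurp) and 0 higher at that unadjusted p. Their median log2 change was -0.15, and DESeq2 called 1 lower. For the variants and these factors the shares over all genes were 7.08% higher and 8% lower in edgeR at that unadjusted p. In DESeq2 3.78% of all genes were called lower.

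The members share promoter letters that the choice by symbol did not use. RefSeq promoters of GRCm38.p6, from 250 bases before to 50 after the start, were matched for 60 members and searched on both strands, with motifs allowed to overlap. Neighbouring H2A and H2B genes on opposite strands often share much of a window, such as Hist1h2ae (chr13:23571171-23571470) and Hist1h2bg (chr13:23571150-23571449). A match in a shared stretch counts for both genes, so the 60 promoters are not all separate stretches of DNA. CCAAT was present in 51 of 60 (85%), against 37.4% of 32851 promoters. It was in every H1, H2A, H2B and H3 promoter matched and in 3 of 12 of class H4. TATAAA was present in 35 of 60 (58.3%), against 13.6% of all promoters. The octamer ATTTGCAT, known from H2B promoters, was found in 7 of 18 H2A and 5 of 14 H2B promoters and in no other class, against 1.74% of all. Some of these are a single site in a shared window: Hist1h2ae with Hist1h2bg, Hist1h2aa with Hist1h2ba, and Hist1h2ah with Hist1h2bk. AAACACA, known from H1 promoters, stood in 5 of 6 H1 promoters, against 7.18% of all. A match is a description of the letters and not a site of binding.

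The promoter of Hist1h1c is printed as the leading linker histone gene, with its CCAAT and AAACACA letters in capitals (GRCm38.p6, chr13:23738557-23738856, plus strand).
Hist1h1c promoter: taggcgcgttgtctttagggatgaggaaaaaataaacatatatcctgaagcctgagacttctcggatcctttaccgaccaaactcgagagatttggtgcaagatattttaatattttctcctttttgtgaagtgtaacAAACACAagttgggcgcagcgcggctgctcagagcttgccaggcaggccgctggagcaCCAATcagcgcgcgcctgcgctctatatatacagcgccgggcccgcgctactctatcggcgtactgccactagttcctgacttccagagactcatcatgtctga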

How the data were processed

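Single-cell libraries of polyadenylated RNA from 6 plates of 96 wells were used, with each well a labelled sample. The authors deposited raw counts, 1 whole number for each gene in each well. They used STAR 2.4 and featureCounts with GRCm38, per the submitters' processing notes. Not given in the sources used here are the gene annotation's release, how strand was handled and what was done with reads that match several places. Since the labels name no molecular identifiers, each count is taken as a read. Of 576 labelled samples 575 had a column of their own, and 1 column that matched no label was not used. Wells with fewer than 50000 counts, fewer than 1500 genes or more than 20% mitochondrial counts were left out (12 wells), which left 563 cells with a median of 1092431 counts (66140 to 3757116).

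Cells were summed per plate. edgeR 4.0.16 (quasi-likelihood test, TMM, its default filter on low counts) was fitted to the 6 plate sums with day and dexamethasone as terms, leaving 2 residual degrees of freedom, and p-values were adjusted by Benjamini-Hochberg over 20040 genes at a threshold of 0.05. The standard error is the log2 change divided by the root of its F value. Ratios between 2 plates used TMM-scaled CPM with a prior count of 2 and have no test. DESeq2 1.42.0 and limma 3.58.1 served as alternatives. For counts per cell, cells were thinned at random to 500000 counts, and gene list scores were means of log2(CPM + 1). Scripts were tested on simulated data in R 4.3.3 and Python 3.11.15. Gene models and transcripts came from a GENCODE annotation of GRCm38 and promoters from RefSeq (GRCm38.p6).

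Members named with values were the 4 most abundant of each class, the 8 with the largest and the 8 with the smallest fitted changes for dexamethasone and for day 3 among those with a mean of at least 1 CPM, and those found in at least 50% of the cells of any plate. From each list of related genes up to 6 were eligible, by mean level, together with a fixed few. The names Hist3h2ba, Hist3h2bb-ps, Hist1h2aj and Hist1h4f, other members under 1 CPM, Zcchc6, Ncbp2, Snrpe, Anp32e and Hjurp were chosen after their values were seen. The members and the gene lists were chosen with earlier results of these data known. Well numbers do not pair wells across plates; day is the block of the fit. Other scalings, filters, tests and cells left out were tried, and some of these were added after the data were seen.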

Additional observations from a re-analysis of the deposited data

Results flagged for a closer look

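The summed level of class H2A was lower with dexamethasone than in control on days 1 and 2, with log2 ratios of -0.51 and -0.70, and higher on day 3, with a log2 ratio of 0.22. The sums behind the day 3 value were 18.1 CPM with dexamethasone and 15.5 CPM in control. It is listed because the sign turned between days, and with 1 plate per day and treatment the difference was not tested.

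The median number of clustered histone genes with a count per cell was 6 higher with dexamethasone than in control on day 3, and the same difference was -1.5 on day 1 and -1 on day 2. The day 3 medians were 11 genes with dexamethasone and 5 in control, and the change of sign put the result here. The difference between days was not tested. Control day 3 also had the fewest genes of any kind per cell at the same depth, a median of 5917, and the most cells with at least 2 neutrophil and monocyte markers, 58 of 93.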

How the results depend on the processing

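Among the main comparisons, the calls changed with the test used. DESeq2 called 2 members for day 3 against day 1 and 5 for day 2 against day 1, where edgeR called 0, and the cause was not tested. edgeR's older quasi-likelihood method, other size factors, library totals without members, mitochondrial genes and globins, no filter on low counts, all wells, no cells with neutrophil and monocyte markers, and limma on mean per-cell CPM each called 0 members in the 3 contrasts. Those library totals moved the median log2 change of all genes for dexamethasone to 0.11, against 0.03. A minimum of 50 CPM left no member to test. The paired analysis takes day as the block; with no replicate block edgeR called 0 members for dexamethasone, with a smallest adjusted p of 0.397. The summed level was 0.070 (log2) without the 3 most abundant members, against -0.13 with them, and lay between -0.195 and -0.071 when a day was left out. The difference in members per cell lay between -1.25 and 2.5 when a day was left out, turning without day 3. Counts of members at least 2-fold apart stayed within 1.5 times under each scaling and cell filter tried.

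Among single members, 10 of 280 log2 changes for dexamethasone outside the left-out days turned sign, and 0 named members were called under any alternative. Without cells with neutrophil and monocyte markers the changes were 0.16 for Hist1h1c, 0.37 for Hist1h2bc, -0.10 for Hist1h3d and -0.046 for Hist4h4. Without the cell with most counts they were 0.0044 for Hist1h1c and 0.069 for Hist1h2bc. Hist1h2bc stood at 0.044 on the library totals above, Hist1h4d at 0.028 with limma, and Hist1h2ak at 0.073 with the older edgeR method and 0.052 with DESeq2. Leaving out a day turned the sign in 17 named members, with ranges of -0.52 to 0.061 for Hist1h1c, -0.55 to 0.020 for Hist2h2be, -0.13 to 0.53 for Hist1h1e, -0.25 to 0.30 for Hist1h2bc, -1.44 to 0.050 for Hist3h2a and -0.33 to 0.58 for Hist1h3f. They were -0.90 to 0.59 for Hist1h4d, -0.57 to 1.29 for Hist1h3d, -0.18 to 1.11 for Hist1h1a, -0.10 to 0.84 for Hist4h4, -0.45 to 0.59 for Hist1h2ae and -0.91 to 0.25 for Hist1h2ab. For Hist1h2bg the range was -0.34 to 0.71, for Hist1h2ac -0.55 to 0.093, for Hist1h4k -0.20 to 0.82, for Hist1h1d -1.20 to 0.36 and for Hist1h2ak -1.31 to 0.74. With 1 plate per day and treatment and few counts per gene and cell, a level under 0.0335 CPM could not be read.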
